A study of Mus musculus with 18 samples.

Results

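Exercise on a low-fat diet was examined in mouse liver by small RNA sequencing, as 3 LF+Ex libraries against 3 LF libraries. These are 6 of the 18 libraries of a study with 6 groups of 3, in which LF or HF was given alone, with CR or with Ex. The labels leave these letters unexplained, and they were taken to mean a low-fat diet (LF), a high-fat diet (HF), restricted calories (CR) and exercise (Ex). The kind and amount of exercise are not stated in the labels. All mice were wild-type C57BL/6J, an inbred laboratory strain. Regimens began at an age of 5 weeks and livers were taken at 62 weeks, so LF and LF+Ex share strain, diet and age and differ in exercise. Of 758 mature miRNAs listed, the 351 with at least 5 RPM, reads scaled to the total of the library, in at least 3 of the 18 libraries were compared. The other 407 were not. The labels do not say whether each library is a different animal, so every p-value measures only the spread between these libraries, which may be technical.

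miRNAs are short RNAs that guide Argonaute proteins to messenger RNAs, mostly by pairing of the seed, bases 2 to 8 from the 5′ end, and lower their translation and stability. miRNAs with the same seed form families that can bind the same sites. In liver, hepatocytes are dominated by miR-122, and a small number of miRNAs are known regulators of cholesterol handling. miR-148a represses the LDL receptor and the cholesterol exporter ABCA1, and miR-33 lies within Srebf2, the gene of a sterol-sensing transcription factor, and represses ABCA1. The let-7 family is known for repressing growth genes and components of the insulin and IGF pathway.

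The mature sequences of the miRNAs with the largest contrasts are given from RefSeq (GRCm38.p6), 5′ to 3′, with the seed in capitals. The first group shares the seed of miR-148a and is shown because its 3 members had different log2 fold changes:
miR-148a-3p: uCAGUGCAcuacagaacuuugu
miR-148b-3p: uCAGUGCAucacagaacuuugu
miR-152-3p: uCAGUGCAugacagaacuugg
The next group is let-7, shown because 9 tested miRNAs with this seed all lay on the same side of 0:
let-7a-5p: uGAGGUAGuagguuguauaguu
let-7b-5p: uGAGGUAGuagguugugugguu
let-7c-5p: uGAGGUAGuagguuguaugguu
let-7f-5p: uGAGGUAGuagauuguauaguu
miR-98-5p: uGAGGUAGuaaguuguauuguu
miR-33-5p and the miR-17 pair are shown because their exercise difference was set against that on the high-fat diet:
miR-33-5p: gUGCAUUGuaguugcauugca
miR-17-5p: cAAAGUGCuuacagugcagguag
miR-20a-5p: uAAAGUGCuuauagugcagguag
The last group holds 2 miRNAs that are made near let-7 genes, followed by the miRNAs with the largest lower and higher log2 fold change among those named by p-value:
miR-125b-5p: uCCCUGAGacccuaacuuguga
miR-100-5p: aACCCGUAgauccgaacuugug
miR-1247-5p: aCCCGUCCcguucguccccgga
miR-592-5p: aUUGUGUCaauaugcgaugaugu

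No miRNA passed the test between LF+Ex and LF: 0 of 351 (0.000%) had a Benjamini-Hochberg adjusted p under 0.05 with limma on log2(RPM + 1). At an unadjusted p under 0.05 there were 41 (11.7%), of which 11 (3.13%) were higher and 30 (8.55%) lower in LF+Ex. The only miRNA called by limma-voom, run on read numbers worked out from the RPM values, was miR-148a-3p, with an adjusted p of 0.0454. In 75 miRNAs (21.4%) the 3 LF+Ex values did not overlap the 3 LF values, with 22 (6.27%) higher and 53 (15.1%) lower in LF+Ex. Differences were small for most miRNAs. The log2 fold change lay within 0.5 of 0 for 255 of them, was above 1 for 5 and below −1 for 18, and its median standard error (SE) was 0.28.

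**Figure D1:**
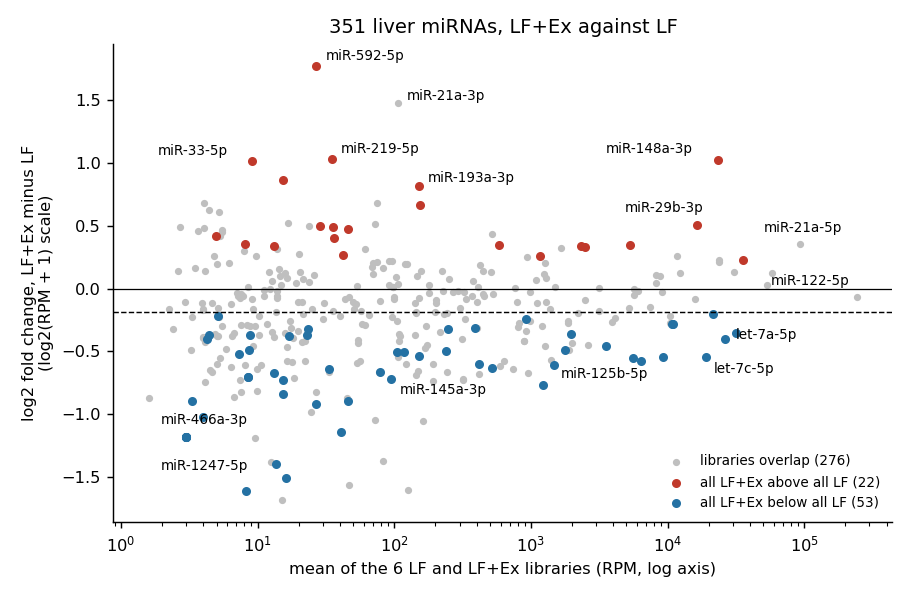
Log2 fold change of LF+Ex against LF for the 351 tested miRNAs (y axis, log2(RPM + 1) scale) against the mean of the 6 libraries (x axis, RPM, log axis). Red points are the 22 miRNAs with all LF+Ex libraries above all LF libraries, blue points the 53 with all below, and the dashed line is the median of −0.19.

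More miRNAs lay below 0 than above it, 244 (69.5%) against 107 (30.5%), and the median log2 fold change was −0.19. RPM is a share of each library, so values are relative to the whole. When libraries were rescaled by median-of-ratios size factors, the scale moved up by 0.17, the median became −0.02 and 53.0% of miRNAs lay below 0. In RPM, the summed gains of LF+Ex over LF were 71872 and the summed losses were −72757. miR-21a-5p made up 28.1% of the gains and miR-148a-3p 21.9%, while miR-122-5p made up 16.04% of the losses and let-7f-5p 10.3%.

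Depth was worked out on the assumption that the smallest listed value of each library is 2 reads. On that basis, reads on listed miRNAs ranged from 6.98 to 8.88 megareads in LF and from 7.12 to 10.5 megareads in LF+Ex. Over all 18 libraries they ranged from 2.38 to 10.5 megareads. A count of 3 reads then corresponded to 0.278 to 0.417 RPM in the 6 libraries. LF 1 stood apart from the other LF libraries, with the highest sums of leukocyte, biliary and epithelial, and stellate miRNAs of the 6. Without LF 1 the median over all 351 miRNAs was −0.08, and 57.0% lay below 0. Without LF 2 that median was −0.29, and 74.9% lay below 0. LF 2 held the most miR-9-5p, at 48.9 RPM against 4.89 to 16.9 RPM in the other 5 libraries.

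miR-148a-3p had the smallest p-value of the comparison. Its level was 15739, 18107 and 12748 RPM in LF and 34248, 31348 and 28262 RPM in LF+Ex. The lowest LF+Ex library was above the highest LF library. This gave a log2 fold change of 1.02 (SE 0.22, adjusted p = 0.0843 with limma), and of 1.20 after rescaling. The adjusted p was 0.0482 after rescaling and 0.0479 without LF 2, and over all alternatives it ran from 0.0454 to 0.294. Mir148a lies on the minus strand at chr6:51269812-51269910 (GRCm38.p6). No gene that spans it was found in GENCODE vM21. Small RNA genes, unconfirmed entries and genes with names in Gm were left out of that search.

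The relatives of miR-148a-3p with the same seed lay closer to 0. miR-148b-3p, which differs from it at 2 of 22 bases, was at 535, 413 and 502 RPM in LF and at 547, 421 and 634 RPM in LF+Ex, a log2 fold change of 0.13. miR-152-3p, which differs at 3 of 21 compared bases, was at 2056, 1883 and 2098 RPM in LF and at 1755, 1265 and 2054 RPM in LF+Ex, a log2 fold change of −0.28. For both, the groups overlapped. The other arm of the same hairpin, miR-148a-5p, was at 73.0, 66.6 and 94.3 RPM in LF and at 90.8, 90.2 and 79.1 RPM in LF+Ex, also overlapping. The log2 ratio of the 5p to the 3p arm was −7.62 (SD 0.51, n = 3) in LF and −8.48 (SD 0.06, n = 3) in LF+Ex. With miR-148a-3p as its most abundant member, the seed family made up 1.86% of listed RPM in LF (SD 0.262, n = 3) and 3.46% in LF+Ex (SD 0.291, n = 3).

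miR-33-5p was much less abundant. It was at 6.35, 5.14 and 5.57 RPM in LF and at 11.8, 12.7 and 12.99 RPM in LF+Ex. Both groups were tight and did not overlap, with a log2 fold change of 1.02 (SE 0.26, adjusted p = 0.166 with limma). The 3p arm, miR-33-3p, was at 4.92, 1.95 and 5.02 RPM in LF and at 3.26, 4.17 and 5.41 RPM in LF+Ex, and these overlapped. The log2 ratio of the arms, 5p over 3p, was 0.50 (SD 0.50, n = 3) in LF and 1.37 (SD 0.23, n = 3) in LF+Ex. Mir33 lies in an intron of Srebf2 on the plus strand, at chr15:82198122-82198190 (GRCm38.p6).

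Whether exercise differed from its control equally on both diets was tested as a single contrast, the HF+Ex minus HF difference less the LF+Ex minus LF difference. It called 3 of 351 miRNAs (0.855%), and 58 (16.5%) had an unadjusted p under 0.05. miR-148a-3p was at 28463, 20913 and 22733 RPM in HF and at 13651, 11113 and 10722 RPM in HF+Ex. All 3 HF+Ex libraries were thus below all HF libraries, opposite to the order on the low-fat diet. The log2 fold change was −1.02 on the high-fat diet against 1.02 on the low-fat diet, and the difference of −2.04 (SE 0.30) had an adjusted p of 0.00212 with limma. Its call held in all 21 alternatives run.

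miR-33-5p had the same crossing of levels. It was at 13.2, 21.2 and 24.2 RPM in HF and at 11.8, 6.68 and 8.03 RPM in HF+Ex, a log2 fold change of −1.05. The highest HF+Ex library was below the lowest HF library, although HF+Ex 1 came close to it. The difference between diets was −2.07 (SE 0.37, adjusted p = 0.00824 with limma), and the call held in all 20 alternatives in which this miRNA was tested.

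The third call was miR-17-5p, a member of the miR-17-92 cluster, which is known for promoting cell proliferation. On the low-fat diet it was at 104, 81.9 and 80.0 RPM in LF and at 103, 107 and 97.9 RPM in LF+Ex. Those groups overlapped, with a log2 fold change of 0.22 (SE 0.17). On the high-fat diet it was at 106, 117 and 99.0 RPM in HF and at 73.2, 52.0 and 47.9 RPM in HF+Ex, a log2 fold change of −0.90. The groups on the high-fat diet did not overlap. The difference of −1.12 (SE 0.24) had an adjusted p of 0.0286 with limma, but the call held in 11 of 21 alternatives, with the adjusted p running from 0.00253 to 0.117. It was lost on leaving out any of 10 single libraries, namely LF 2, LF 3, LF+Ex 1, LF+Ex 2, LF+Ex 3, HF 1, HF 2, HF 3, HF+Ex 2 or HF+Ex 3. Mir17 lies in an exon of Mir17hg at chr14:115043671-115043754 (GRCm38.p6), on the plus strand.

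miR-20a-5p comes from the same transcript and has the same seed. It was at 1018, 906 and 670 RPM in LF and at 1039, 921 and 1094 RPM in LF+Ex, a log2 fold change of 0.25 against −0.85 on the high-fat diet. The difference between diets was −1.10, with an adjusted p of 0.0621. Of the 5 tested miRNAs with this seed, 3 lay above 0 on the low-fat diet (miR-17-5p, miR-20a-5p and miR-106b-5p) and all 5 lay below 0 on the high-fat diet. miR-93-5p was the most abundant, at 5071, 3463 and 3862 RPM in LF and at 3066, 2551 and 3358 RPM in LF+Ex, a log2 fold change of −0.46.

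**Figure D2:**
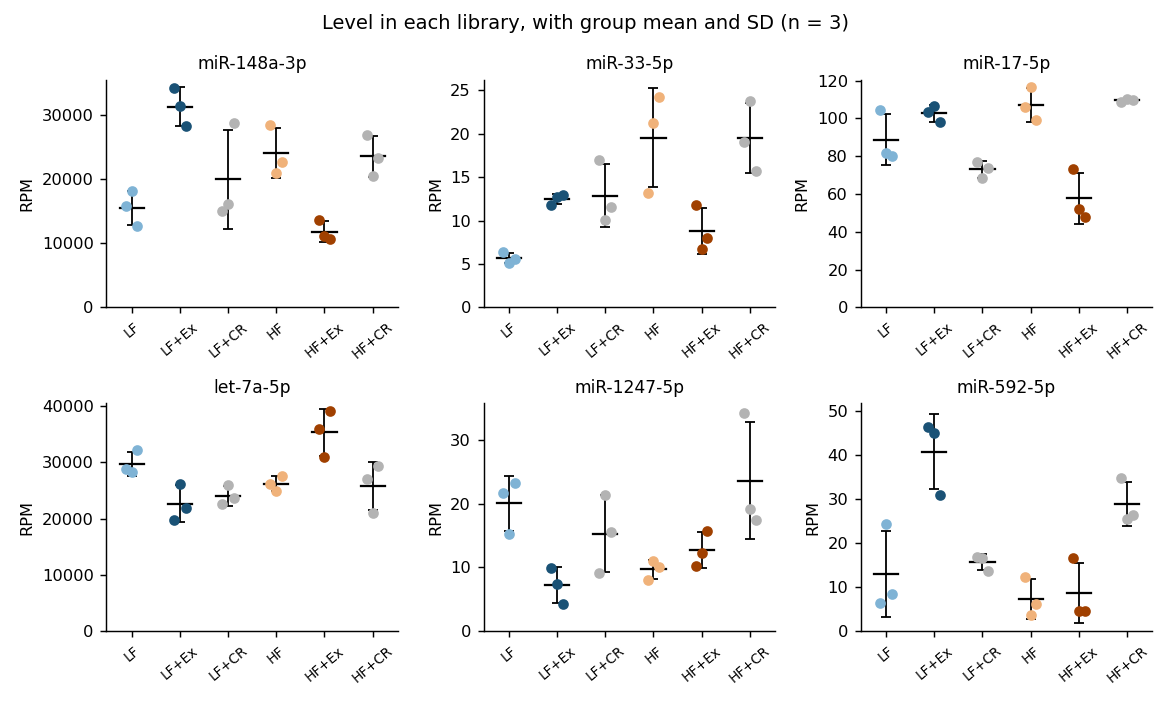
RPM of 6 miRNAs in each of the 18 libraries (points) with the group mean (bar) and SD (line, n = 3), on axes that start at 0. miR-148a-3p and miR-33-5p were higher in every LF+Ex library than in any LF library and lower in every HF+Ex library than in any HF library.

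All tested let-7 5p arms had a log2 fold change below 0, and none was called. The scarcer 3p arms were not all alike, with let-7d-3p at −0.60, let-7e-3p at 0.13, let-7g-3p at 0.45 and let-7i-3p at 0.05. let-7a-5p was at 28727, 28275 and 32166 RPM in LF and at 19725, 26177 and 21897 RPM in LF+Ex. let-7c-5p was at 21748, 20442 and 25789 RPM in LF and at 13551, 17783 and 15429 RPM in LF+Ex. For both, every LF+Ex library was below every LF library, with log2 fold changes of −0.40 (SE 0.14) and −0.54 (SE 0.17) and adjusted p-values of 0.237 with limma. let-7f-5p, the most abundant member, was at 35313, 37240 and 33196 RPM in LF and at 23224, 28457 and 31549 RPM in LF+Ex, also without overlap.

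All 9 tested miRNAs with the let-7 seed, let-7a, b, c, d, e, f, g and i and miR-98, lay below 0, and 7 of them without overlap, beside 69.5% below 0 and 15.1% lower without overlap among all 351. Their median log2 fold change was −0.40 against −0.19 over all 351 miRNAs, and −0.23 after rescaling, with all 9 still below 0. The median ran from −0.44 to −0.31 when each of the 6 libraries was left out. The sequences differ from let-7a by 1 to 4 bases, so reads can be split between members in the counting, and the members are not independent measurements. As a share of listed RPM their sum was 14.1%, 13.9% and 14.8% in LF and 9.66%, 12.03% and 11.3% in LF+Ex. The highest LF+Ex library was below the lowest LF library. On the high-fat diet the same share was 13.1%, 13.2% and 13.3% in HF and 15.8%, 14.2% and 16.7% in HF+Ex, the opposite order. All 9 members lay above 0 there, with a median of 0.21. The share of all 351 above 0 on that diet was not counted. Over all 351 the difference between diets had a median of 0.17, which became 0.003 after rescaling. For let-7a-5p the difference between diets was 0.83 (SE 0.19, adjusted p = 0.0532 with limma), and the adjusted p ran from 0.0251 to 0.166 over the alternatives. After rescaling it was 0.66, with an adjusted p of 0.131 with limma.

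**Figure D3:**
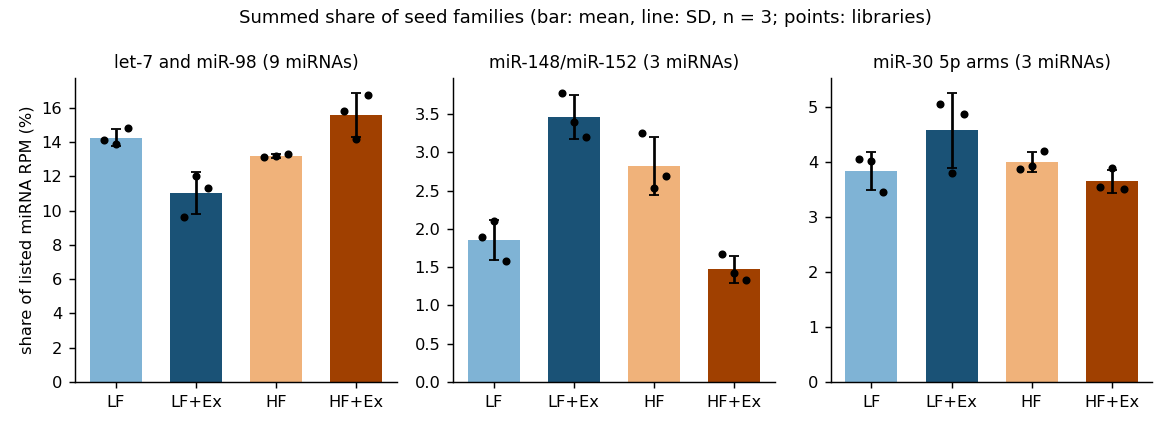
Summed share of listed miRNA RPM (%, y axis from 0) for the let-7, miR-148/miR-152 and miR-30 seed families in LF, LF+Ex, HF and HF+Ex (bars, mean; lines, SD, n = 3; points, libraries). The let-7 share was 14.3% in LF and 11.01% in LF+Ex, against 13.2% in HF and 15.6% in HF+Ex. The miR-30 bars sum miR-30a-5p, miR-30c-5p and miR-30e-5p only.

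miR-100 and miR-125b are made from loci that also hold let-7 genes. miR-125b-5p was at 6528, 5840 and 7525 RPM in LF and at 4917, 4330 and 4251 RPM in LF+Ex, without overlap (log2 fold change −0.55, SE 0.20, adjusted p = 0.237 with limma). miR-100-5p was at 755, 477 and 662 RPM in LF and at 443, 425 and 337 RPM in LF+Ex, again without overlap, with a log2 fold change of −0.63 and an adjusted p of 0.331. miR-125a-5p was at 2148, 1230 and 1256 RPM in LF and at 1078, 944 and 664 RPM in LF+Ex, a log2 fold change of −0.76. All 3 were lower in every LF+Ex library than in any LF library. Relatives with the same seeds were not all alike. miR-351-5p, with the seed of miR-125, was at 68.9, 58.8 and 78.8 RPM in LF and at 91.6, 65.02 and 84.3 RPM in LF+Ex, a log2 fold change of 0.21 with overlap. With the seed of miR-100, miR-99a-5p was at −0.05 and miR-99b-5p at −0.68. The low-abundance arm miR-125b-1-3p was at 7.39, 3.89 and 5.78 RPM in LF and at 2.31, 2.04 and 2.29 RPM in LF+Ex, a log2 fold change of −1.02 (adjusted p = 0.237). Mir100 lies at chr9:41531425-41531504 and Mir125b-1 at chr9:41581926-41582002, both on the plus strand of GRCm38.p6.

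Of the 351 miRNAs, 293 matched a mature sequence in the RefSeq table, and 12 seeds were shared by at least 3 tested miRNAs. Among members with a matched sequence, all lay below 0 on the low-fat diet in 4 of these seed groups and above 0 in 2. Of all 351 miRNAs, 69.5% lay below 0. The groups with all members below 0 on the low-fat diet and all above 0 on the high-fat diet were let-7 and miR-99/miR-100. How many of all 351 had this pair of signs was not counted. The 3 tested 5p members of miR-30 with a sequence, miR-30a-5p, miR-30c-5p and miR-30e-5p, all lay above 0, with a summed share of 3.83% of listed RPM in LF and 4.57% in LF+Ex. The other 5p arms named miR-30 were not in this group or its sum, with miR-30b-5p at 0.34 and miR-30d-5p at −0.15.

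**Figure D4:**
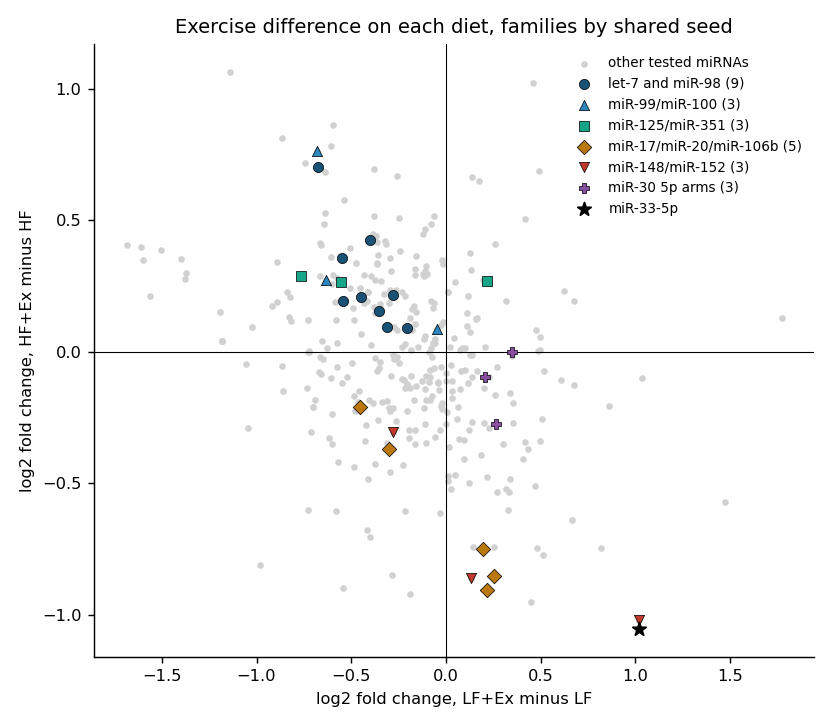
Log2 fold change of LF+Ex against LF (x axis) and of HF+Ex against HF (y axis) for the 351 tested miRNAs (grey), with seed families and miR-33-5p marked. The 9 let-7 members lie left of 0 and above 0, while miR-148a-3p and miR-33-5p lie at 1.02 on the low-fat diet and at −1.02 and −1.05 on the high-fat diet.

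Of the most abundant miRNAs, miR-122-5p and miR-194-5p differed little, while let-7a-5p at −0.40 and let-7f-5p at −0.36 were lower without overlap. miR-122-5p, the main hepatocyte miRNA, was at 206787, 259278 and 281284 RPM in LF and at 226842, 278898 and 206593 RPM in LF+Ex. The groups overlapped over nearly their whole range, with a log2 fold change of −0.07 (SE 0.13), which was 0.11 after rescaling. miR-194-5p was likewise close to 0 at 0.03 (SE 0.15). Its partner miR-192-5p was at 26601, 35869 and 36488 RPM in LF and at 41019, 36719 and 37130 RPM in LF+Ex, a log2 fold change of 0.23 (SE 0.15) without overlap, although LF 2 and LF 3 lay just below the LF+Ex values.

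miR-21a-5p, known from inflamed and fibrotic tissue, was the second most abundant miRNA. It was at 103411, 87843 and 58037 RPM in LF and at 103666, 94599 and 111592 RPM in LF+Ex, a log2 fold change of 0.35 (SE 0.24) with overlapping groups. Its other arm, miR-21a-3p, was at 103, 31.8 and 28.4 RPM in LF and at 294, 117 and 60.6 RPM in LF+Ex. That is a log2 fold change of 1.47 (SE 0.58, adjusted p = 0.313 with limma). LF 1 lay between the LF+Ex libraries, so these groups overlapped too.

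The miR-29 family represses collagen genes, and its 3p arms, the abundant ones, all lay above 0. miR-29b-3p was at 15416, 11775 and 13583 RPM in LF and at 18156, 17937 and 21665 RPM in LF+Ex. Every LF+Ex library was above every LF library, with a log2 fold change of 0.51 (SE 0.17, adjusted p = 0.237 with limma). miR-29a-3p and miR-29c-3p, with the same seed, were each at 0.13. On the high-fat diet miR-29b-3p was at −0.26, and its difference between diets had an adjusted p of 0.143.

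Among miRNAs higher in LF+Ex, miR-592-5p had the largest log2 fold change of all, 1.77 (SE 0.49, adjusted p = 0.200 with limma). It was at 6.35, 24.3 and 8.40 RPM in LF and at 46.5, 45.0 and 30.9 RPM in LF+Ex. LF 2 was the highest LF library and still below every LF+Ex library. Without LF 2 the log2 fold change was 2.31 and the adjusted p 0.0479. Mir592 lies in an exon of Grm8, on the minus strand at chr6:27936655-27936750 (GRCm38.p6).

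The next miRNAs on the higher side were also scarce. miR-219-5p was at 23.6, 14.5 and 31.2 RPM in LF and at 35.1, 48.6 and 57.5 RPM in LF+Ex, a log2 fold change of 1.03 (SE 0.31, adjusted p = 0.237). miR-193a-3p was at 98.5, 79.7 and 156 RPM in LF and at 198, 188 and 183 RPM in LF+Ex, a log2 fold change of 0.82 (SE 0.29, adjusted p = 0.237). Neither pair of groups overlapped. For miR-193a-3p the high-fat diet again gave the opposite sign, −0.75, with a difference between diets of −1.57 (adjusted p = 0.0883). Both arms of miR-1948, miR-1948-3p at 0.68 and miR-1948-5p at 0.86, were among the miRNAs named for their small p-values. miR-1948-5p was at 9.07, 15.8 and 7.64 RPM in LF and at 20.9, 19.2 and 18.9 RPM in LF+Ex.

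On the lower side, miR-1247-5p had the second smallest p-value after miR-148a-3p. It was at 21.6, 15.2 and 23.2 RPM in LF and at 9.92, 7.32 and 4.33 RPM in LF+Ex. The groups did not overlap, with a log2 fold change of −1.40 (SE 0.34, adjusted p = 0.141 with limma). On the high-fat diet it was 0.35. Mir1247 lies in an exon of Dio3os, within the imprinted Dlk1-Dio3 domain, on the minus strand at chr12:110278048-110278129 (GRCm38.p6).

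miR-143 and miR-145a, known from smooth muscle and stellate cells, are made from a single transcript. miR-145a-3p was at 141, 103 and 106 RPM in LF and at 88.2, 58.9 and 65.4 RPM in LF+Ex, a log2 fold change of −0.72 (SE 0.20, adjusted p = 0.200 with limma). miR-143-3p was at 8322, 7025 and 7279 RPM in LF and at 6470, 4484 and 4454 RPM in LF+Ex, a log2 fold change of −0.57 (SE 0.20, adjusted p = 0.237 with limma). Both were without overlap. On the high-fat diet the log2 fold changes of these arms were 0.00 and −0.06. The more abundant arm miR-145a-5p was at 1879, 963 and 1582 RPM in LF and at 1423, 1230 and 1158 RPM in LF+Ex, with overlap. Its log2 fold change was −0.17 (SE 0.26), close to the median of −0.19 over all miRNAs.

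Other miRNAs named by their p-value on the lower side were miR-106b-3p (log2 fold change −0.92), miR-129-5p (−0.89), miR-676-3p (−0.66), miR-1198-5p (−0.64) and miR-128-3p (−0.50). Their adjusted p-values ran from 0.237 to 0.271. The more abundant arm of the miR-106b hairpin, miR-106b-5p, lay on the other side of 0, at 0.19. The log2 ratio of these arms, 5p over 3p, was 1.66 (SD 0.14, n = 3) in LF and 2.77 (SD 0.27, n = 3) in LF+Ex. miR-128-3p, which is known to target cholesterol transport genes, was at 125, 111 and 135 RPM in LF and at 80.7, 83.4 and 96.5 RPM in LF+Ex. All 5 were without overlap, as were 15.1% of all 351 on the lower side, but they were named by p-values from these same libraries. All 5 had a positive log2 fold change on the high-fat diet, from 0.17 to 0.48. The share of all 351 that did so was not counted. miR-145a-3p and miR-143-3p, named by the same rule, had smaller values there, as given above. miR-466a-3p and 4 further miR-466 entries had identical values in every library, 7.78, 2.50 and 3.60 RPM in LF and 1.90, 0.556 and 1.68 RPM in LF+Ex. They are a single measurement listed under 5 names, with a log2 fold change of −1.18 (SE 0.48).

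Lists of miRNAs with known cell type or pathway were described by counts and medians, beside 107 above and 244 below 0 and a median of −0.19 for all 351. In bulk liver, fewer cells of a type and less RNA per cell cannot be told apart. No member of any list was called. Of 13 tested hepatocyte-enriched miRNAs, 8 lay above 0 and 5 below, with a median of 0.16 (0.34 after rescaling). miR-122-3p, miR-192-5p, miR-192-3p, miR-148a-3p and miR-455-5p lay above all LF libraries in every LF+Ex library, 5 of 13 where 22 of all 351 (6.27%) did so. miR-455-5p was at 121, 125 and 113 RPM in LF and at 199, 201 and 172 RPM in LF+Ex, a log2 fold change of 0.66 (adjusted p = 0.430). The more abundant arm of that hairpin, miR-455-3p, was at 1016, 824 and 830 RPM in LF and at 920, 665 and 605 RPM in LF+Ex, a log2 fold change of −0.30 with overlap. The other members below 0 were miR-122-5p at −0.07, miR-802-5p at −0.18, miR-802-3p at −0.35 and miR-194-2-3p at −0.37. The defining marker miR-122-5p made up 21.4% to 29.0% of listed RPM in the 6 libraries.

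Markers of other liver cells moved with single libraries, in both directions. All 11 leukocyte and Kupffer cell miRNAs lay below 0, with a median of −0.58, and their sum was 9016, 2930 and 4493 RPM in LF and 3671, 3622 and 4821 RPM in LF+Ex. LF 1 was the highest of the 6 and LF 2 the lowest, and LF 3 lay among the LF+Ex libraries. miR-223-3p, a myeloid miRNA, was at 1664, 391.7 and 799 RPM in LF and at 498, 424 and 652.5 RPM in LF+Ex. Without LF 1 the median of this list was −0.10, and without LF 2 it was −0.83. Of 10 biliary and epithelial miRNAs 9 lay below 0, with a median of −0.56, and a sum of 7818, 2490 and 3591 RPM in LF and 5398, 2603 and 2367 RPM in LF+Ex. Without LF 1 this median was 0.07, without LF 2 it was −1.10 and without LF+Ex 1 it was −1.14.

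The 10 stellate and mural miRNAs all lay below 0, with a median of −0.42 and a sum of 15547, 9878 and 12130 RPM in LF against 10326, 8429 and 7807 RPM in LF+Ex. Among them miR-199a-3p and miR-199b-3p had the same log2 fold change, −0.41. They may be a single measurement that the sum counts under both names. Without LF 1 the list median was −0.14, and without LF 2 it was −0.76. Of 13 tested miRNAs of the Dlk1-Dio3 cluster, an imprinted miRNA cluster, 12 lay below 0. Their median was −0.58, or −0.12 without LF 1 and −0.98 without LF 2. The whole list summed to 301, 90.5 and 174 RPM in LF, against 124, 117 and 99.7 RPM in LF+Ex. Without LF 1 the log2 fold change was −0.50 for miR-143-3p, −0.58 for miR-145a-3p and −1.33 for miR-1247-5p.

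Erythroid miRNAs summed to 8302, 3656 and 6915 RPM in LF, against 6840, 3386 and 6862 RPM in LF+Ex, with 4 of 5 below 0. Of 6 endothelial miRNAs 4 lay below 0, with a median of −0.19. Of 6 tested neuronal miRNAs 4 lay below 0 (median −0.65), led by miR-9-5p at −1.51 (SE 0.75), whose highest value was in LF 2. Muscle miRNAs summed to 28.3, 153 and 86.9 RPM in LF, against 51.1, 26.2 and 13.95 RPM in LF+Ex, with 2 tested and both below 0. Fragment-like entries, used as a sign of RNA quality, summed to 39.9, 42.3 and 45.5 RPM in LF, against 65.1, 33.1 and 44.1 RPM in LF+Ex. Their median was 0.29 over 4 tested entries. On the high-fat diet these entries summed to 60.8, 173 and 56.1 RPM in HF, against 461, 42.1 and 57.0 RPM in HF+Ex. HF+Ex 1, the highest, was also the shallowest of the 18 libraries, at 2.38 megareads. The part of these cell types and of RNA quality in the other differences was not tested.

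**Figure D5:**
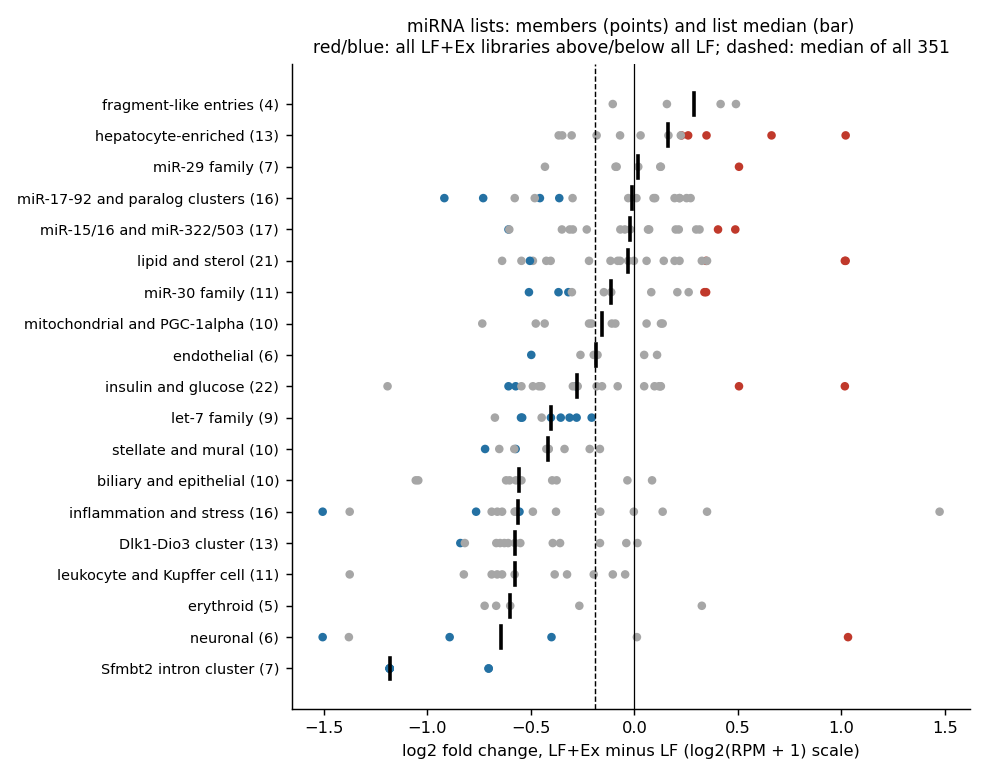
Log2 fold change of LF+Ex against LF (x axis, log2(RPM + 1) scale) for the tested members (points) of each miRNA list (y axis, number tested in brackets), with the list median as a black bar and the median of all 351 as a dashed line. The let-7 members lie below 0 in a narrow range, and hepatocyte-enriched miRNAs have a median of 0.16.

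Of 21 tested miRNAs with known roles in lipid and sterol metabolism 9 lay above 0 and 12 below, with a median of −0.03. This list holds the extremes of miR-148a-3p and miR-33-5p at 1.02 next to miR-128-3p at −0.50. Of 22 insulin and glucose miRNAs 7 lay above 0 and 15 below, with a median of −0.28. In that list miR-103-3p, which targets an insulin receptor partner, was at 12178, 11615 and 11519 RPM in LF and at 9961, 8809 and 10329 RPM in LF+Ex. These groups did not overlap, with a log2 fold change of −0.28 (SE 0.17) that became −0.11 after rescaling.

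Of 10 tested miRNAs tied to mitochondria and PGC-1alpha, a coactivator linked to endurance exercise, 3 lay above 0 and 7 below. The median was −0.16. miR-378a-3p, encoded within the gene of its relative PGC-1beta, was at 9480, 10068 and 13966 RPM in LF and at 9191, 8251 and 11151 RPM in LF+Ex, which overlapped (log2 fold change −0.22, SE 0.24). Of 16 inflammation and stress miRNAs 13 lay below 0, with a median of −0.56 that was −0.10 without LF 1 and −0.82 without LF 2. miR-34a-5p, a p53 target, was at 3493, 1293 and 1831 RPM in LF and at 1004, 1197 and 2484 RPM in LF+Ex, with overlap. The miR-30, miR-15/16 and miR-17-92 lists, with both arms, had medians of −0.11, −0.02 and −0.01, and the miR-29 list of 7 arms had 4 above and 3 below 0 and a median of 0.02. The 7 tested entries of the Sfmbt2 intron cluster, 5 of them the identical miR-466 entries, all lay below 0 with a median of −1.18.

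The 2 arms of a hairpin are cut from the same precursor, so they give a second reading of it. Both arms were tested for 100 precursors, and 65 had both on the same side of 0, 15 above and 50 below. With 69.5% of all 351 miRNAs below 0, unrelated pairs would often share a side too. The Pearson correlation of the arms was 0.457. miR-148a, miR-33 and miR-21a were 3 precursors whose arms lay on the same side but at different distances from 0, as given above. Precursors that lie within 10000 bases of each other on a strand formed 31 clusters with at least 3 tested miRNAs. Beside the same 69.5% below 0 among all 351, all tested miRNAs lay below 0 in 12 clusters. In 1, on the X chromosome, all lay above. The miRNAs there were scarce: miR-741-3p was at 2.85, 5.42 and 1.53 RPM in LF and at 14.5, 5.84 and 1.08 RPM in LF+Ex, so LF+Ex 1 was high and LF+Ex 3 was the lowest of the 6.

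Calorie restriction on the same diet was compared with the same 3 LF libraries, so the values are given only side by side. For miR-33-5p the log2 fold change against LF was 1.02 (SE 0.26) in LF+Ex and 1.03 (SE 0.26) in LF+CR. For miR-148a-3p it was 1.02 in LF+Ex and 0.31 in LF+CR (SE 0.22 for both), where the 3 LF+CR libraries were at 15001, 16068 and 28788 RPM. let-7c-5p was at −0.54 in LF+Ex and −0.65 in LF+CR (SE 0.17 for both). The summed share of the let-7 seed family was 10.6%, 10.9% and 10.8% of listed RPM in LF+CR. Like the LF+Ex shares, these were below every LF library. miR-1948-3p was at 0.68 in LF+Ex and −1.66 in LF+CR (SE 0.25 for both), with LF libraries at 44.2, 79.8 and 48.7 RPM, LF+Ex libraries at 102, 98.3 and 71.2 RPM and LF+CR libraries at 13.1, 19.4 and 19.0 RPM. LF+CR was thus below LF in every library for this miRNA, while LF+Ex overlapped LF.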

How the data were processed

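The deposited values are RPM per mature miRNA, per the file headers, scaled by the authors to each library. Per the submitters' processing notes the genome build was mm10. Which aligner, counter and miRNA release were used, and how multiply matching reads were treated, is not given in the sources used here. Trizol extraction, small RNA enrichment and Illumina libraries are per the labels' protocols. The columns summed to 96.4% to 97.1% of the RPM scale.

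Values were tested as log2(RPM + 1) with limma 3.58.1 in R 4.3.3. All 18 libraries entered the fit with 6 group coefficients, eBayes used an intensity trend, tests were two-sided, and p-values were adjusted (Benjamini-Hochberg) over 351 miRNAs. The pseudocount of 1 RPM understates fold changes of scarce miRNAs. With 3 libraries against 3, an exact permutation test could not go below 0.1. Library depth was worked out from the RPM steps by taking the smallest listed value of each library as 2 reads. This was an assumption, under which all listed values were whole reads and a listed 0 can stand for 1 read. The code was tested on simulated data. Figures used matplotlib 3.10.9 in Python 3.11.15.

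Named miRNAs were the 24 with the smallest p, with ties, members of the lists, other arms and seed relatives, the 10 most abundant, and the 6 with the smallest p between diets. Members and lists were chosen with earlier results of these data known. Neighbouring names such as miR-741-3p were chosen after their values were seen. Alternatives changed the pseudocount, filter, scaling, fit, replicate block, variance trend and libraries.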

Additional observations from a re-analysis of the deposited data

Results flagged for a closer look

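The exercise difference of 3 miRNAs differed between the low-fat and the high-fat diet in limma's test of the difference itself, HF minus LF, on the log2(RPM + 1) scale. For miR-148a-3p the difference was −2.04 (adjusted p = 0.00212), with the 3 LF+Ex libraries above the 3 LF libraries and the 3 HF+Ex libraries below the 3 HF libraries. For miR-33-5p it was −2.07 (adjusted p = 0.00824), with the same order of libraries on both diets. For miR-17-5p it was −1.12 (adjusted p = 0.0286), with overlapping libraries on the low-fat diet and no overlap on the high-fat diet.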

How the results depend on the processing

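The count of 0 miRNAs called between LF+Ex and LF stayed 0 with a pseudocount of 5 RPM, with no filter, with a filter of 50 RPM, with a fit of LF and LF+Ex alone, without the variance trend and with identical entries counted once. It was 1 after rescaling by size factors and 1 with limma-voom, which was chosen after seeing the data, and ran from 0 to 2 when each library was left out. The 2 calls came without LF 2 and were miR-148a-3p and miR-592-5p. The difference between diets called 3 miRNAs. The number was 5 with no filter, 8 after rescaling and 12 with a fit of only the 4 groups involved, and ran from 2 to 4 when each library was left out. With the replicate number as a block, the counts were 0 and 3. The pairs of LF and LF+Ex libraries with the same number correlated at 0.0293, 0.189 and 0.144 in their deviations from the group means. Pairs with different numbers ran from −0.184 to 0.0749, and LF+Ex 1 correlated best with LF 2 (0.0313). Pairs of HF and HF+Ex with the same number were at −0.149, −0.164 and 0.0204. These values cannot settle whether the numbers pair the libraries, and the main fit used no pairing. Directions reversed for 2 miRNAs near 0: miR-122-5p was at 0.11 after rescaling, 0.025 without LF 3 and 0.026 without LF+Ex 3 (lowest −0.20, without LF 1), and miR-194-5p was at −0.047 without LF 1, −0.0095 without LF+Ex 1 and −0.014 without LF+Ex 3. The cause of these shifts was not tested. The planned edgeR test on recovered reads was not run, since the step of 1 read could not be established from the smallest values alone. Depth limits miRNAs near 5 RPM most.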
